A study of Rattus norvegicus with 8 samples.

Results

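The genes described here encode the enzymes that add and remove methyl and acetyl groups on histones and methyl groups on DNA, together with a few proteins that read acetylated histones. They were chosen by gene symbol, from the families of lysine methyltransferases, arginine methyltransferases, lysine demethylases, acetyltransferases, deacetylases, sirtuins, DNA methyltransferases, TET dioxygenases and bromodomain proteins. The choice was made with earlier results of these data known. The table held 13536 rows, of which 88 matched, and 86 of these had enough reads to be tested. The cells were primary nucleus pulposus cells of Wistar rats, grown out from explants of the soft core of the intervertebral disc. The ShHuR group had 4 libraries, from cells given a lentiviral short hairpin RNA against HuR (gene Elavl1). The ShCTR group had 4 libraries, from cells given the pLKO.1 vector with a hairpin that has no target. Cells of both groups carried a lentivirus and spent the last 24 h at 1% oxygen, so no library shows untransduced cells or normal oxygen. Animal age is not given in the sources used here, and the labels do not say whether replicates are different rats or cultures. The p-values therefore speak only of the scatter among these libraries, which may be technical.

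Histone tails carry marks that are written, erased and read by separate proteins. Acetyl groups on lysines generally accompany open, transcribed chromatin, while methyl groups accompany active or silent chromatin depending on the residue. Most lysine demethylases and the TET enzymes are dioxygenases that need molecular oxygen, iron and oxoglutarate, and several, Kdm3a among them, are known targets of the hypoxia-inducible factors. HuR is an RNA-binding protein that stabilises many mRNAs, and in human cells the mRNAs of SIRT1 and DNMT3B have been described as bound by it. The chosen symbols do not all name histone enzymes: Setd3 methylates actin, the Brd genes encode readers, and Prmt and Sirt enzymes also act on many other proteins.

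Recovered reads ran between 6797360 and 8038192 in ShHuR libraries and between 9096738 and 12179515 in ShCTR libraries, so the knockdown libraries were shallower (p = 0.0286 in a two-sided exact permutation test, which 4 against 4 libraries cannot go below). The target Elavl1 had 63.8, 6.06, 8.36 and 49.6 normalized counts in ShHuR replicates 1 to 4, against 555, 699, 583 and 644 in ShCTR replicates 1 to 4. Libraries with the same replicate number deviated together and are treated as pairs, and pair 1 stood apart from the other pairs in both groups. Of the nucleus pulposus markers, Acan lay between 14.2 and 211 normalized counts in ShHuR and between 72.6 and 449 in ShCTR, and Col2a1 was at 0 in 3 ShHuR and 2 ShCTR libraries. By limma with replicate number as a block, at an adjusted p of 0.05, 8.05% of all tested genes fell and 7.16% rose. Of the 11 tested markers of that list 3 fell by it (Acan, Sox6 and Car12) and 0 rose. Positive log2 fold changes were seen for 4, up to 1.03 for Cd24 (adjusted p = 0.224 in blocked limma). The list summed to between 5206 and 31936 normalized counts in ShHuR and between 4467 and 31956 in ShCTR, mostly from the glucose transporter gene Slc2a1, and the sum was higher in ShHuR in pairs 2 to 4. The fibroblast collagen gene Col1a1 lay between 2444 and 20117 in ShHuR and between 23002 and 44777 in ShCTR. The fibroblast and annulus list had 9 of 11 genes in the table. It summed to between 45130 and 125376 normalized counts in ShHuR and between 59904 and 158099 in ShCTR. By the same test 5 of its 9 tested genes fell, where 8.05% of all tested genes did. The 27 proliferation markers summed to between 4811 and 13516 in ShHuR and between 5197 and 19468 in ShCTR, with a median log2 fold change of −0.26. Endothelial markers were near 0, at sums between 1.52 and 23 in ShHuR and between 4.48 and 8.41 in ShCTR over the 2 genes in the table. The 3 leukocyte markers in the table summed to between 563 and 1290.1 in ShHuR and between 334 and 993 in ShCTR, with Cd68 highest in pair 1 of both groups. The part of these differences in the results for chromatin genes was not tested, and fewer cells of a type and less RNA per cell cannot be told apart in bulk RNA.

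Few chromatin enzymes changed after HuR knockdown, with a share of rises near that of all genes and a share of falls below it. With replicate number as a block, limma on log2(normalized count + 1) found 6 of the 86 members higher and 2 lower at an adjusted p of 0.05, taken over all 11847 tested genes. Of all tested genes 7.16% were higher, 8.05% lower and 15.2% called in either direction by the same test. The members' shares were 6.98%, 2.33% and 9.3%, so the share of rises lay at the background and the share of falls below it. The genes that rose were Kdm7a, Hdac11, Kdm1a, Dot1l, Kmt5b and Setd5, and those that fell were Kat2b and Brd8. At an unadjusted p under 0.05, 30 members passed (34.9%), beside 34.5% of all genes. Every verb of change below refers to this test.

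Single genes are given from the blocked fit because same-numbered libraries correlated in these same data. The planned test, limma without the block, called 0 members and 0 genes in all. At an unadjusted p under 0.05 that fit had 3 members and 8.26% of all genes, and its smallest adjusted p among members was 0.187, for Kdm7a. Among other tools, edgeR called 11 members with the block and 0 without it, and DESeq2 called 10 with it and 2 without it, Kdm7a and Kat2b. The calls also depended on the pairs included: blocked limma called 0 members without pair 2, 0 without pair 4, 2 without pair 3 (Hdac11 and Kdm7a) and 19 without pair 1. Each of the 8 genes went in the same direction in 4 of 4 pairs. Leaving out a pair in blocked limma therefore could not turn a sign, and the kept signs are no support for the calls. Without pair 1, 14 of the 86 members were higher and 5 of the 86 lower, where 11.3% of all genes were higher and 12.6% lower.

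**Figure D1:**
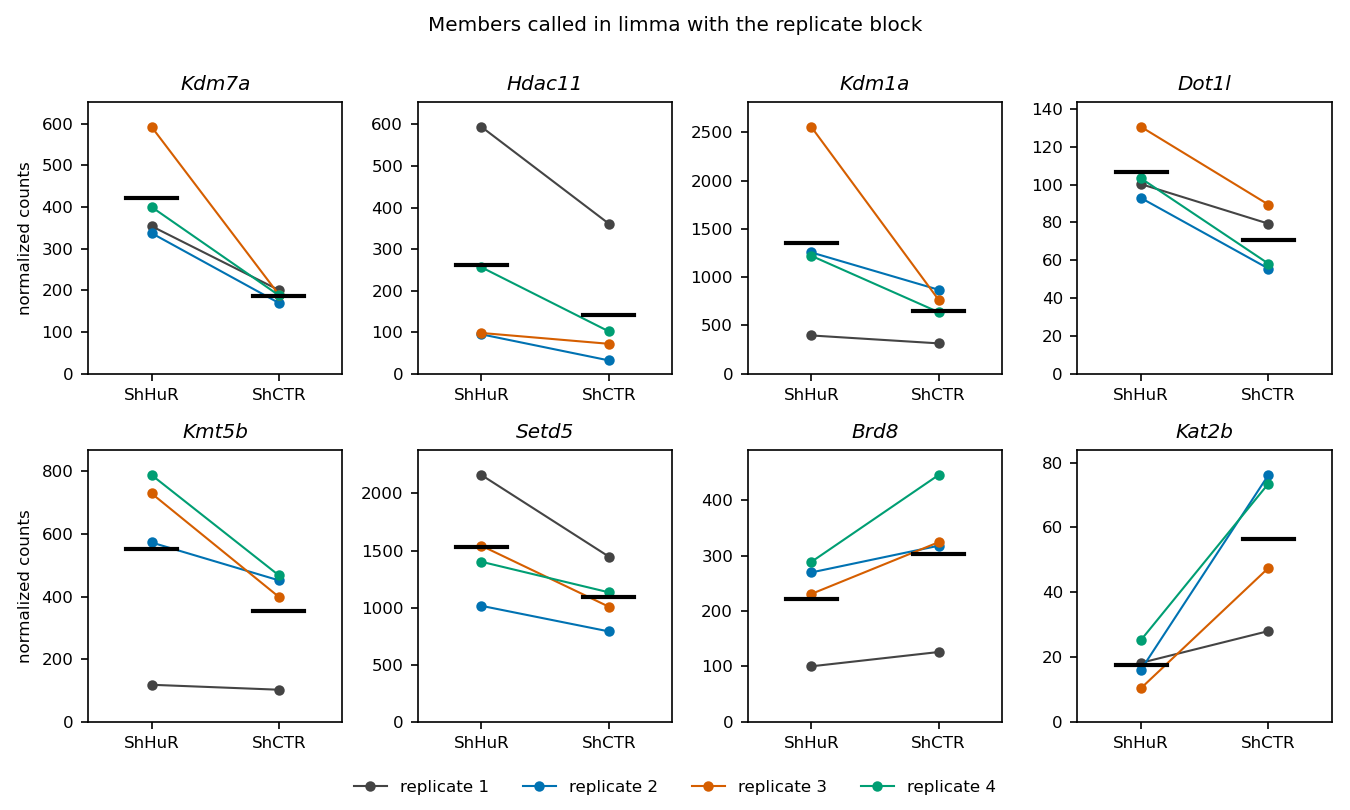
Normalized counts of the 8 members called by limma with the replicate block, in ShHuR (left) and ShCTR (right) libraries; points are libraries, coloured lines join libraries with the same replicate number, and black bars are means of 4. Kdm7a and Dot1l (higher in ShHuR) and Kat2b (lower) show no overlap between groups, as do 2.52% and 3.09% of all tested genes in these directions. Hdac11, Kmt5b, Brd8, Kdm1a and Setd5 have more of their sum of squares between pairs than between groups.

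Among the lysine demethylases, Kdm7a (ENSRNOG00000052445) had the largest rise of any member. This enzyme of the plant homeodomain and Jumonji family removes methyl groups from H3K9 and H3K27. It had 354, 337, 592 and 400.0 normalized counts in ShHuR replicates 1 to 4, against 201, 169.9, 189.9 and 188 in ShCTR replicates 1 to 4. Every ShHuR value exceeded the highest ShCTR value, a separation that 2.52% of all tested genes showed in this direction, and the ShCTR values were close together. The means were 421 ± 117 in ShHuR and 187 ± 12.8 in ShCTR (SD, n = 4 each), a log2 fold change of 1.13 (SE 0.15; blocked limma, adjusted p = 0.0102, and 0.187 without it). Its pairwise log2 differences were 0.82, 0.99, 1.64 and 1.08, all of them positive.

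Kdm1a (ENSRNOG00000022372), also called LSD1, is a flavin-dependent demethylase of H3K4 that works with the CoREST corepressor. It had 397, 1256, 2556 and 1221 normalized counts in ShHuR replicates 1 to 4 and 315, 869.9, 767 and 638 in ShCTR replicates 1 to 4. The groups overlapped because both pair 1 libraries were low, and the knockdown library of pair 3 was the highest of the 8. The log2 fold change was 0.88 (SE 0.21; blocked limma, adjusted p = 0.0342), with pairwise differences of 0.33, 0.53, 1.74 and 0.94. Its relative Kdm1b had a log2 fold change of −0.40 (SE 0.14, adjusted p = 0.0898 in blocked limma), and its ShHuR values, between 85.6 and 106, lay below its ShCTR values, between 116 and 149. Kdm1b is named here because its groups did not overlap, as was so for 3.09% of all genes in that direction.

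Of 17 tested lysine demethylases 2 rose and 0 fell, where 7.16% of all tested genes rose and 8.05% fell. The class median log2 fold change was 0.26, against a median of 0.01 over all tested genes. By pair the class median was −0.03, 0.22, 0.35 and 0.27 in pairs 1 to 4, so it was not raised in pair 1. Kdm3a, the H3K9 demethylase induced in hypoxia, had 892, 1686, 3235 and 3343 normalized counts in ShHuR replicates 1 to 4 against 718, 1281, 1065 and 2204 in ShCTR replicates 1 to 4. It was higher in each of the 4 pairs, with a log2 fold change of 0.73 (SE 0.21), but did not pass in blocked limma (adjusted p = 0.0529). It passed without pair 1 (0.87, adjusted p = 0.0247 in blocked limma) and in DESeq2 with the block (adjusted p = 0.0161). It did not pass in edgeR with the block (adjusted p = 0.059), nor in blocked limma after quantile scaling (0.0643), without a trend (0.105) or without pair 2, 3 or 4 (0.119, 0.0771 and 0.153). The H3K4 demethylase gene Kdm5b averaged 2025 ± 689 in ShHuR and 1475 ± 215 in ShCTR (SD, n = 4 each; log2 fold change 0.40, blocked limma, adjusted p = 0.102). Kdm6b, which acts on H3K27, averaged 69.3 ± 24.7 and 48.2 ± 14.7 in the same order, with pairwise log2 differences of −0.37, 1.26, 0.21 and 0.94. Kdm4b, Kdm4c and Kdm6a had log2 fold changes of 0.27, −0.11 and 0.01, none of which passed. Kdm5d, a Y-linked gene named here for that reason, was present in every library, between 363 and 479.7 in ShHuR and between 379 and 467 in ShCTR.

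Promoter windows are shown for the genes with the largest rise and the largest fall, Kdm7a and Kat2b, with that of Kdm3a as a known hypoxia-inducible member. They are RefSeq windows of the GRCr8 assembly, from 250 bases before to 50 after the annotated start and read 5′ to 3′ on the gene's strand: chr4:68992930-68993229 on the minus strand, chr9:6798895-6799194 on the plus strand and chr4:105233321-105233620 on the minus strand. Capitals mark ACGTG on either strand, a form of the core of the hypoxia response element. The other form, GCGTG, was not searched or marked.
Kdm7a promoter: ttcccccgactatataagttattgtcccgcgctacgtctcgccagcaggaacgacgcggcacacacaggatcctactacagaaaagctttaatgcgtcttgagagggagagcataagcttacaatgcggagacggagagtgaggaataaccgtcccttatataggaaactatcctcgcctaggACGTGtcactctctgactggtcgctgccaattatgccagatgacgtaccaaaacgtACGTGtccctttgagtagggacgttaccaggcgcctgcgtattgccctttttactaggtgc
Kat2b promoter: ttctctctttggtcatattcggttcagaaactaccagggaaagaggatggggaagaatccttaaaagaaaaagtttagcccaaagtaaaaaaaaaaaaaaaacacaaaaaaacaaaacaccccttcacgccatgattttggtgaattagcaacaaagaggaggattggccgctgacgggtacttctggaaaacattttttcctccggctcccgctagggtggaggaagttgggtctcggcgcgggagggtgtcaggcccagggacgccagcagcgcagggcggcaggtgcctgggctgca
Kdm3a promoter: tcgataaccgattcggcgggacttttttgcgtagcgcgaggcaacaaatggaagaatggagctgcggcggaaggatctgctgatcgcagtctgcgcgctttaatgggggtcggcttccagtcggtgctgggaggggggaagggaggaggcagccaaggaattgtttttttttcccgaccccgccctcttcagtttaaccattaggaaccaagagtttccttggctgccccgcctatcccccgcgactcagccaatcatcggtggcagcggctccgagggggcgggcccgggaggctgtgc
The Kdm7a window held 2 matches to ACGTG and those of Kat2b and Kdm3a 0. This says nothing about GCGTG or about sites outside these 300 bases. Of the 88 members 73 had a window, and 20 of these (27.4%) held ACGTG on either strand, against 26.1% of 8691 windows of tested genes. The GC box GGGCGG was in 67.1% of member windows and 65% of windows of tested genes, the ETS core CCGGAA in 28.8% and 29.1%, and the CCAAT box in 45.2% and 38.1%, each counted on both strands. An observed-to-expected CpG ratio above 0.6 was found in 89% of member windows, against 75.7% of windows of tested genes, and the median GC content was 63% against 61.3%. The windows of Kdm7a, Kat2b and Kdm3a were at 51%, 49.7% and 60.3% GC, below that median, and held 21, 12 and 24 CpG.

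Histone acetyltransferases held the largest fall. Kat2b (ENSRNOG00000011871), also called PCAF, acetylates H3 as a subunit of SAGA-type coactivator complexes. It had 18.2, 16.2, 10.4 and 25.3 normalized counts in ShHuR replicates 1 to 4, against 28, 76.2, 47.5 and 73.5 in ShCTR replicates 1 to 4. No ShHuR value reached the lowest ShCTR value, that of replicate 1, a separation that 3.09% of all tested genes showed in this direction. The gene was low in every library. The means were 17.5 ± 6.14 in ShHuR and 56.3 ± 22.9 in ShCTR (SD, n = 4 each), a log2 fold change of −1.59 (SE 0.30; blocked limma, adjusted p = 0.0196, and 0.323 without it). The pairwise log2 differences were −0.59, −2.17, −2.08 and −1.50.

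The other 8 tested acetyltransferase genes did not pass, and their log2 fold changes lay between −0.25 for Kat8 and 0.31 for Kat5. Kat2a, the close relative of Kat2b in the same complexes, had a log2 fold change of 0.31 (adjusted p = 0.11 in blocked limma) and was higher in 4 of 4 pairs. The general coactivators Crebbp and Ep300 averaged 461 ± 197 and 106 ± 13.4 in ShHuR, against 390.3 ± 93.1 and 111 ± 39.9 in ShCTR (SD, n = 4 each). Their log2 fold changes were 0.13 and −0.02, and Crebbp was lower in pair 1, by −0.54, and higher in the other pairs.

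Histone deacetylases showed 1 rise and 0 falls among 10 tested genes, where 7.16% of all tested genes rose and 8.05% fell. Hdac11 (ENSRNOG00000006824), the class IV enzyme, which also removes fatty acyl groups, had 594, 94.9, 98.2 and 256 normalized counts in ShHuR replicates 1 to 4 and 361, 32.2, 72.1 and 102 in ShCTR replicates 1 to 4. It was higher in each pair although the groups overlapped widely. Both pair 1 libraries were high, and among the other pairs ShCTR replicate 4 lay above ShHuR replicates 2 and 3. The log2 fold change was 1.00 (SE 0.20; blocked limma, adjusted p = 0.0221, and 0.831 without it), with pairwise differences of 0.72, 1.53, 0.44 and 1.32. The class I enzymes Hdac1 and Hdac2 averaged 204 ± 64.2 and 1246 ± 119 in ShHuR, against 244 ± 70.1 and 1091 ± 38.4 in ShCTR (SD, n = 4 each). Their log2 fold changes were −0.27 and 0.19 and did not pass, and Hdac1 was lower in 4 of 4 pairs. Hdac1l, a copy that could share reads with Hdac1, did not exceed 12.1 normalized counts in any library and had too few reads for a test.

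Sirtuins, the deacylases that consume NAD, had 0 calls among 7 genes in blocked limma. Sirt1 had 63.8, 418, 477 and 305 normalized counts in ShHuR replicates 1 to 4, against 59.8, 226, 213 and 241 in ShCTR replicates 1 to 4. It was higher in each pair, and in pairs 2 to 4 every ShHuR value exceeded every ShCTR value, while both pair 1 libraries were low. Its log2 fold change was 0.62 (SE 0.19; blocked limma, adjusted p = 0.0622, which became 0.0134 without pair 1). With the block it passed in edgeR (adjusted p = 0.0447) and in DESeq2 (adjusted p = 0.0253). It did not pass in blocked limma after quantile scaling (adjusted p = 0.0613), without a trend (0.106) or without pair 2, 3 or 4 (0.221, 0.185 and 0.141). The mitochondrial sirtuins Sirt3 and Sirt5, named after their values were seen, had log2 fold changes of −0.53 and 0.36 (blocked limma, adjusted p = 0.0788 and 0.0533). Sirt4, also mitochondrial, was at −0.11 (blocked limma, adjusted p = 0.772). Sirt3 was lower in 4 of 4 pairs, though by only −0.01 in pair 1, and Sirt5 was higher in 4 of 4.

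**Figure D2:**
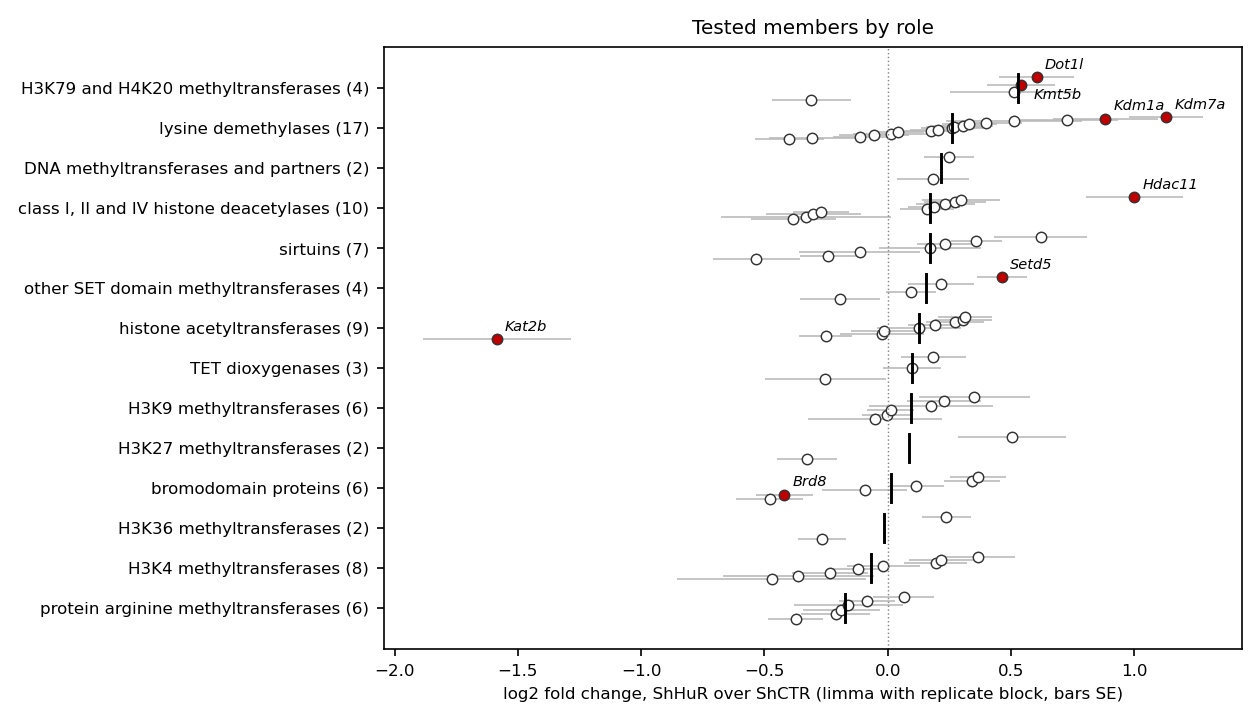
Log2 fold changes (ShHuR over ShCTR, limma with the replicate block) of the 86 tested members by role, with the number tested in brackets; bars are standard errors, filled points passed an adjusted p of 0.05 and vertical ticks are class medians. Class medians lie between −0.17 for arginine methyltransferases and 0.53 for the H3K79 and H4K20 methyltransferases.

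Of 4 tested methyltransferases of H3K79 and H4K20 2 rose and 0 fell. In the class of other SET domain genes, 1 of 4 rose and 0 fell. Of all tested genes 7.16% rose and 8.05% fell, and in classes of 4 a single gene is a large share. Dot1l (ENSRNOG00000032546), the H3K79 methyltransferase, had 100.3, 92.9, 131 and 103 normalized counts in ShHuR replicates 1 to 4, against 79.4, 55.7, 89.5 and 58.2 in ShCTR replicates 1 to 4. The groups did not overlap, as was so for 2.52% of all tested genes in this direction. The lowest ShHuR value and the highest ShCTR value lay close together. The log2 fold change was 0.60 (SE 0.15; blocked limma, adjusted p = 0.0382, and 0.567 without it). In the RefSeq annotation Dot1l overlaps Plekhj1, Kdm7a overlaps LOC134486573, Hdac11 overlaps LOC134486816 and Kat2b overlaps LOC120094907. Reads of such genes cannot be told apart where counting did not use strand, and the other 4 called members overlap no annotated gene.

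Kmt5b (ENSRNOG00000016790), which adds methyl groups to H4K20, had 119, 573, 729 and 788 normalized counts in ShHuR replicates 1 to 4 against 103, 452, 399 and 468 in ShCTR replicates 1 to 4. It rose by 0.54 on the log2 scale (SE 0.14; blocked limma, adjusted p = 0.0392), and both pair 1 libraries had less than the lowest of the other 6. Setd5 (ENSRNOG00000007472), a SET domain protein that associates with corepressor complexes, had 2161, 1016, 1542 and 1402 in ShHuR against 1448, 792, 1009 and 1135 in ShCTR, in the same order. Its log2 fold change was 0.46 (SE 0.10; blocked limma, adjusted p = 0.0276) and was positive in all 4 pairs, at 0.58, 0.36, 0.61 and 0.30, although the groups overlapped.

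The other methyltransferase classes had 0 calls in blocked limma. Of the 8 tested H3K4 enzymes, 3 had a positive and 5 a negative log2 fold change, with Setd1b, at 32.9 normalized counts or below in every library, at −0.47 (SE 0.38). The H3K36 enzymes Setd2 and Nsd1 were at 0.24 and −0.27, and Nsd1 was lower in 4 of 4 pairs. Whsc1 and Whsc1l1, older symbols of 2 further Nsd genes that lie outside the rule and are named for completeness, were at −0.15 and 0.09. Among 6 H3K9 enzymes the log2 fold changes lay between −0.05 and 0.35, the largest being that of Suv39h1l1 (SE 0.23), and Ehmt1 and Ehmt2 were at 0.00 and 0.01. Ezh2, the catalytic subunit of the Polycomb complex that methylates H3K27, averaged 321 ± 57 in ShHuR and 243 ± 113 in ShCTR (SD, n = 4 each), with pairwise log2 differences of 0.39, 0.48, 1.34 and −0.19 and no call (log2 fold change 0.50, blocked limma, adjusted p = 0.149). Its relative Ezh1 was at −0.33 and differed by 0.05 in pair 1 and by −0.37, −0.53 and −0.46 in the other pairs. Of 6 arginine methyltransferases 5 had negative log2 fold changes, the largest for Prmt2, at −0.37 (SE 0.11; blocked limma, adjusted p = 0.0609, and 0.0493 in edgeR), and 0 passed. Carm1, an arginine methyltransferase outside the symbol rule that was named after its values were seen, fell by 0.50 on the log2 scale (SE 0.12; blocked limma, adjusted p = 0.0369). It had 289, 239, 173 and 257 normalized counts in ShHuR replicates 1 to 4 against 445, 316, 292 and 299 in ShCTR replicates 1 to 4. Its groups did not overlap, as was so for 3.09% of all tested genes in that direction.

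Of the DNA methyltransferases and TET enzymes, the 5 tested did not pass. Dnmt1, which copies methylation after replication, averaged 609.5 ± 60.8 in ShHuR and 513 ± 56.4 in ShCTR (SD, n = 4 each), with a log2 fold change of 0.25 (SE 0.10; blocked limma, adjusted p = 0.128) and a higher value in each of the 4 pairs. Dnmt3a, a de novo methyltransferase gene, averaged 118 ± 47.1 and 102 ± 32.5 in the same order. Dnmt3b was at 11.1 normalized counts or below in every ShHuR library and at 9.13 or below in every ShCTR library, so it was not tested. Tet1, Tet2 and Tet3, which oxidise methylcytosine, were at −0.25, 0.10 and 0.18 on the log2 scale, with adjusted p-values of 0.498, 0.579 and 0.353 in blocked limma.

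Bromodomain proteins showed 1 fall among 6 tested genes, where 8.05% of all tested genes fell. Brd8, a subunit of the TIP60 acetyltransferase complex, had 100.3, 269.6, 231 and 289 normalized counts in ShHuR replicates 1 to 4 against 126, 318, 324 and 445 in ShCTR replicates 1 to 4. It was lower in each pair with overlapping groups, and its log2 fold change of −0.42 (SE 0.12) only just passed in blocked limma (adjusted p = 0.0491). Without the filter on low values and in DESeq2 with the block it did not pass (adjusted p = 0.0567 in DESeq2). Brd3, of the BET family, averaged 175 ± 18.9 in ShHuR and 248 ± 52.3 in ShCTR (SD, n = 4 each) and only just missed the threshold in blocked limma (log2 fold change −0.48, adjusted p = 0.0503), while edgeR with the block called it (adjusted p = 0.0406).

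**Figure D3:**
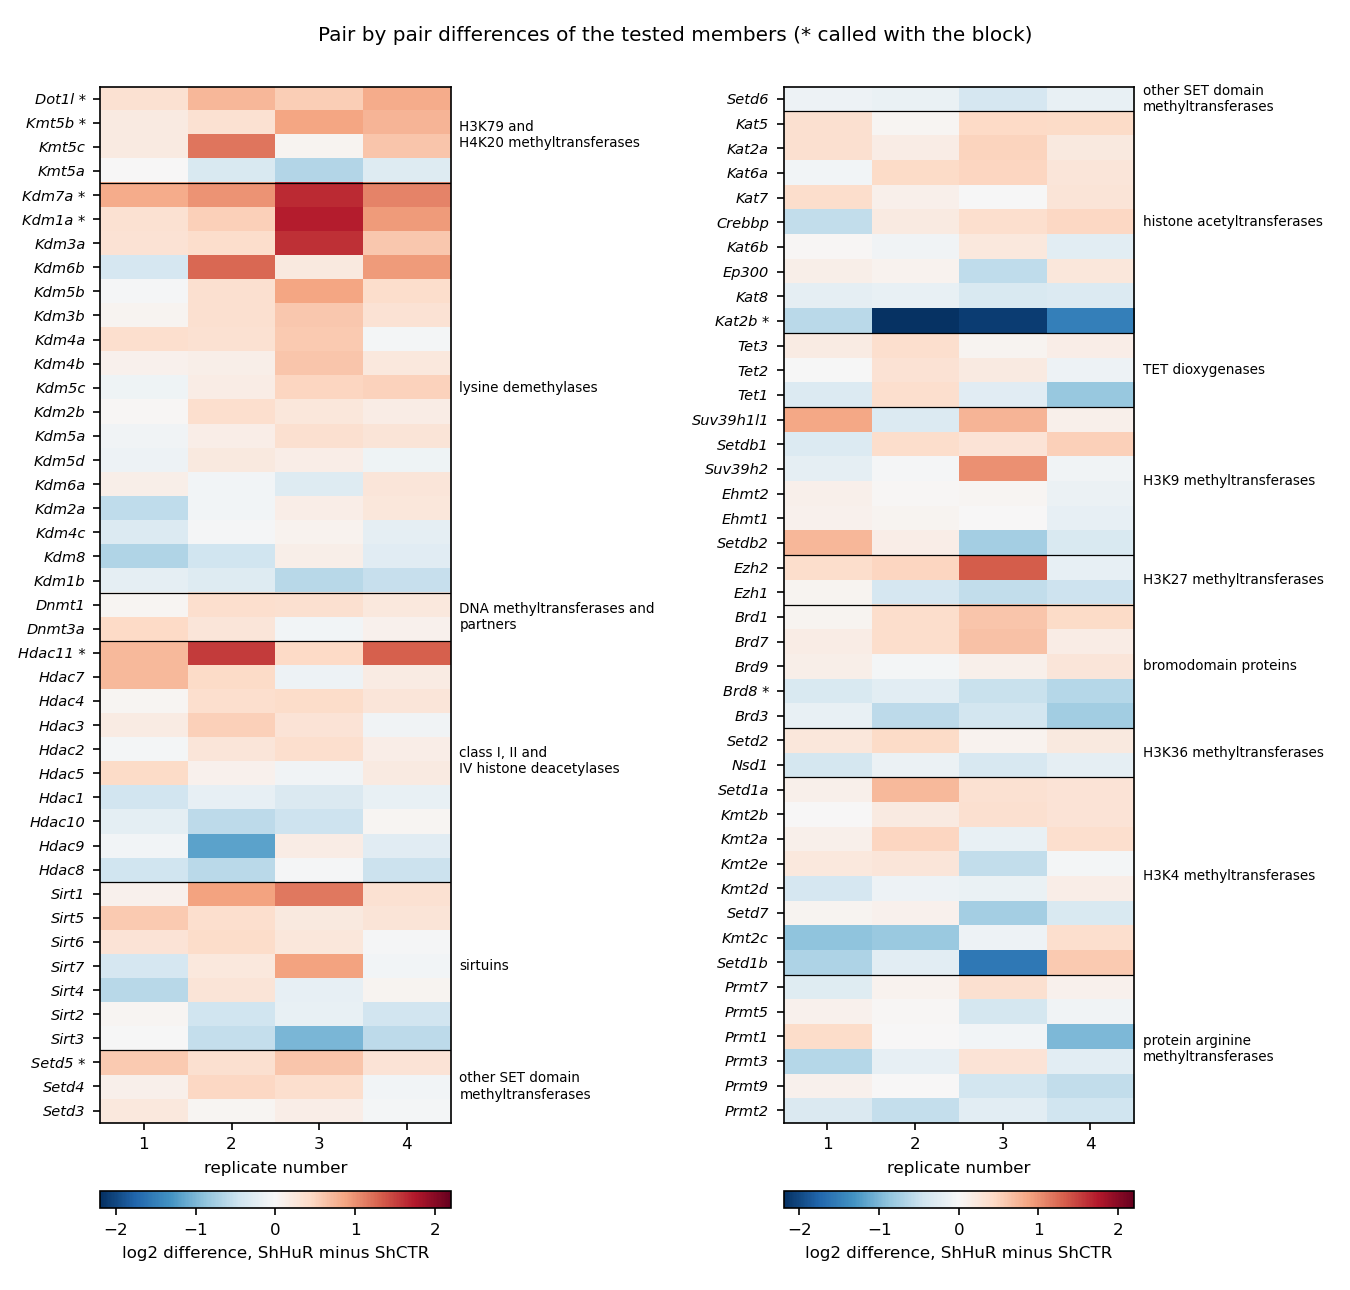
Log2 differences (ShHuR minus ShCTR, values + 1) of the 86 tested members, less 1 that is not shown, in each of the 4 pairs, grouped by role and ordered within a role by log2 fold change; red is higher in ShHuR, blue lower, and an asterisk marks a call in blocked limma. Kdm7a, Kdm1a and Kdm3a are reddest in pair 3, at 1.64, 1.74 and 1.60.

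Most members moved little. The log2 fold change was under 0.5 in size for 74 of the 86 and over 1 for 3, and the median size was 0.25 among members and 0.26 among all tested genes. It was positive for 51 members (59.3%) and for 51.2% of all genes, with medians of 0.14 and 0.01. All 4 pairs went up for 23 members (26.7%, against 22.3% of all genes) and down for 11 (12.8%, against 19.4%). The groups did not overlap for 2 of the 86 members with ShHuR higher and 2 with ShHuR lower. Of all tested genes 2.52% and 3.09% were so separated. The median log2 difference over members was 0.05, 0.15, 0.14 and 0.12 in pairs 1 to 4.

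Differences between the pairs were larger than those between the groups. For the median member, 75.6% of the sum of squares lay between replicate numbers and 9.55% between groups, close to the 76.5% and 9.27% of the median over all tested genes. With 4 replicate numbers and 2 groups, these shares are not on an equal footing. In 19 members (22.1%, against 30.6% of all genes) the mean of the 2 pair 1 libraries differed from the mean of the other pairs by more than 1 on the log2 scale. Hdac11, Hdac9, Hdac7, Tet1, Hdac5, Sirt2, Ezh1 and Kat8 were higher in pair 1, by 2.33 for Hdac11 and 1.67 for Hdac5. Kmt5b, Sirt1, Sirt7, Kdm1a, Brd8, Kat7, Kdm8, Kdm3a, Crebbp, Kat6a and Kdm2a were lower there, by −2.31 for Kmt5b and −2.25 for Sirt1. Hdac5, a class IIa deacetylase, had 2563, 603, 730.1 and 820.3 normalized counts in ShHuR replicates 1 to 4 and 1910.0, 566, 768 and 714 in ShCTR replicates 1 to 4, so its pair difference was seen in both groups. What the replicate numbers stand for is not given in the sources used here.

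**Figure D4:**
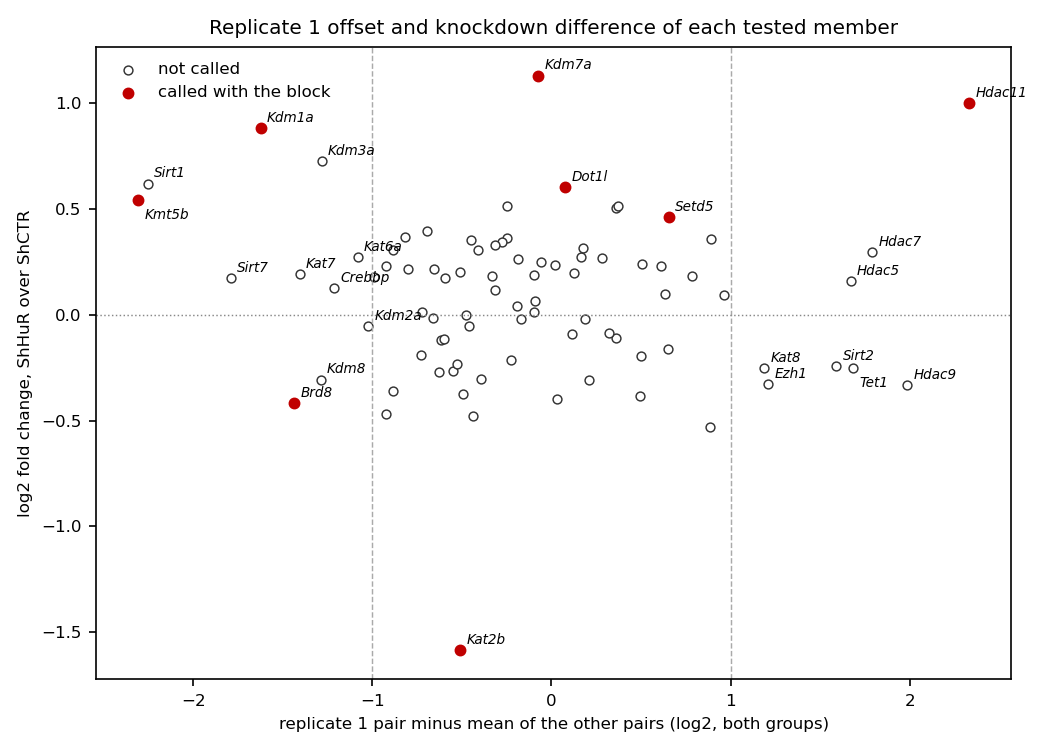
Each tested member's offset of the replicate 1 pair (mean of its ShHuR and ShCTR libraries minus the mean of the other pairs, log2, horizontal) against its log2 fold change of ShHuR over ShCTR (vertical); filled points passed in blocked limma and dashed lines mark an offset of 1. Of the called genes Kmt5b, Kdm1a and Brd8 lie left of −1 and Hdac11 right of 1, while Kdm7a and Dot1l lie near 0.

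Enzymes with other symbols and the partner subunits of these enzymes were read from lists made with the earlier results known. Of 27 tested other chromatin enzymes 3 rose and 2 fell, where 7.16% of all tested genes rose and 8.05% fell. Hr, the hairless corepressor and H3K9 demethylase, averaged 293 ± 234 in ShHuR and 61.2 ± 38.9 in ShCTR (SD, n = 4 each; log2 fold change 1.92, SE 0.33; blocked limma, adjusted p = 0.0161) and was higher in each pair. Tdg, the glycosylase that excises oxidised methylcytosine, had 229, 608, 918 and 699.8 normalized counts in ShHuR replicates 1 to 4 against 168, 309, 317 and 352 in ShCTR replicates 1 to 4, a log2 fold change of 0.99. Gtf3c4, a transcription factor IIIC subunit with acetyltransferase activity, fell by 0.50 on the log2 scale. The remaining rise and fall were those of Jmjd1c, at 0.39, and of Carm1.

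Of 29 tested Polycomb subunits 2 rose and 1 fell, beside 7.16% and 8.05% of all tested genes. Cbx6, a chromodomain reader of H3K27 methylation, had 422, 228, 124 and 143 normalized counts in ShHuR replicates 1 to 4 against 619, 535, 463 and 427 in ShCTR replicates 1 to 4. Its groups did not overlap, as was so for 3.09% of all tested genes in that direction. The log2 fold change was −1.31 (SE 0.20, adjusted p = 0.0127 in blocked limma). Phf1 and Phc2 rose by 0.53 and 0.38. Among 33 subunits of acetyltransferase complexes 3 rose and 1 fell, beside the same 7.16% and 8.05% of all tested genes. Tada2b, the ADA2 subunit of SAGA, which also holds Kat2b, rose by 0.64, and Brpf3 and Jade1, scaffolds of Kat7 complexes, were at 0.75 and −0.62. None of 12 COMPASS and 25 HDAC corepressor subunits passed in blocked limma, and edgeR with the block called 1 COMPASS subunit as higher and 0 corepressor subunits.

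Of 10 genes of methyl-CpG binding and maintenance 3 fell and 0 rose, where 8.05% of all tested genes fell and 7.16% rose. Gadd45a, a stress protein linked to DNA demethylation, averaged 913 ± 299 in ShHuR and 1728 ± 320.1 in ShCTR (SD, n = 4 each). Its groups did not overlap, as was so for 3.09% of all tested genes in that direction. The log2 fold change was −0.97 (blocked limma, adjusted p = 0.0291). Gadd45g fell by 0.75 and Uhrf1, which brings Dnmt1 to newly replicated DNA, by 0.65. Of 27 tested proliferation genes 2 fell, Rrm2 at −0.89 and Mki67 at −0.70, a share near the 8.05% of all tested genes, and 0 rose. Without pair 1, 7 of the 27 fell, where 12.6% of all tested genes were lower in the same fit. Of 19 SWI/SNF subunits 1 fell, Smarcd3, at −0.54, beside 8.05% of all tested genes. Of 17 genes of cofactor supply Idh2 rose by 0.54 and Idh1 fell by 0.58, where 7.16% of all tested genes rose and 8.05% fell. These isocitrate dehydrogenases make the oxoglutarate that dioxygenases use, Idh2 in mitochondria and Idh1 in the cytosol.

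**Figure D5:**
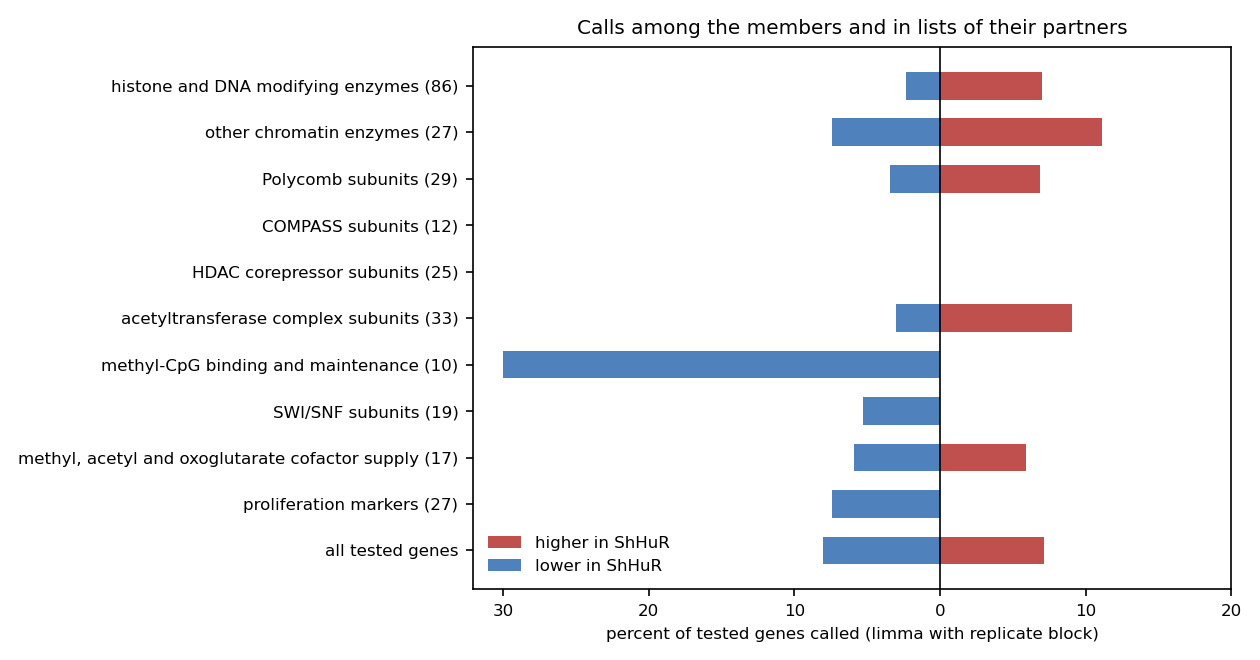
Percent of tested genes called higher (red, right) or lower (blue, left) in ShHuR by limma with the replicate block, for the members and for lists of other chromatin genes and of proliferation markers, with the number tested in brackets. The bottom bar is the background over all tested genes, 7.16% higher and 8.05% lower, and the lists hold between 10 and 33 genes, so 1 gene moves a bar by several percent.

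The authors' deposited table, which gives adjusted p-values for 13007 genes and calls 16.3% of them, calls 11 members, 9 higher and 2 lower. Of these, 7 are among the 8 called in blocked limma. The authors' deposited table also calls Sirt1 (log2 fold change 0.61, adjusted p = 0.0250), Kdm3a (0.66, adjusted p = 0.0172), Sirt5 and Brd3, each of which lay between 0.0503 and 0.0622 in adjusted p in blocked limma. Brd8 was called in blocked limma and not in the authors' deposited table (adjusted p = 0.0546).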

How the data were processed

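Per the labels' protocols, libraries were stranded and made from total RNA after removal of ribosomal RNA. The sources used here give no aligner, counter, genome build or annotation. The values are a normalized signal: read counts scaled by the authors with 1 factor for each library, judged from the values, and called normalized per the file headers. Of all values 100% were whole multiples of their library's step, to within 0.01 read, so reads were recovered. The authors also deposited log2 fold changes and adjusted p-values, with no method stated.

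Values were analysed as log2(value + 1). Rows with at least 10 normalized counts in at least 4 libraries were tested (11847 of 13536). The planned test was a two-sided limma 3.58.1 fit (R 4.3.3) without a block, in which the variance followed a trend on the mean, with Benjamini-Hochberg adjustment at 0.05. edgeR 4.0.16 and DESeq2 1.42.0 on recovered reads, other pseudocounts, filters and scalings, and leaving out libraries were alternatives. Tests were checked on simulated data. Replicate numbers 1 to 4 occur in both groups. Same-numbered libraries correlated in their deviations from the group means, with r of 0.87, 0.78, 0.63 and 0.77 across genes. Each lay over the 0.1 that was taken to show pairing, so the values given for single genes come from the blocked fit, which has the replicate number as a factor. ShHuR replicate 2 with ShCTR replicate 3 (0.62) and ShHuR replicate 3 with ShCTR replicate 2 (0.43) also lay over 0.1. That threshold therefore does not tell replicates 2 and 3 apart, and the other unlike-numbered r were negative. Members and lists were chosen with earlier results of these data known. Named genes were Elavl1, members called with the block, the largest change in each role, 18 members by name, and up to 3 called genes of each other list, and genes named beyond these were chosen after their values were seen. Symbols were used as row names, because identifiers in the sheet of all genes stand out of register: of 2114 rows matched by value to the sheet of called genes, the symbol was equal in 2114 and the identifier in 3. A further member chosen by name is not reported here. No sequence of the hairpins and no transcript sequence was used here.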

Additional observations from a re-analysis of the deposited data

Results flagged for a closer look

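Each of the following values stood apart from the other 3 of its group by Dixon's test at the 95% level, which chance alone flags in about 1 of 20 groups. Of 110 groups of 4 examined, over 55 named genes, 10 had such a value, and 8 of the 10 were replicate 1 libraries. Sirt1 in ShCTR replicate 1 was at 59.8 normalized counts, with the other ShCTR libraries between 213 and 241. Ep300 in ShCTR replicate 3 was at 171, with the others between 84.2 and 98.6, and Suv39h1l1 in ShCTR replicate 4 was at 176, with the others between 30.1 and 54.9. Among partner genes, Phf1 in replicate 1 was at 374 in ShHuR and 282 in ShCTR, and Gadd45g in replicate 1 at 4981 in ShHuR and 5299 in ShCTR, in each case above the other libraries. Tada2b in ShHuR replicate 1 was at 214 with the others between 429 and 457, and Smarcd3 in ShCTR replicate 1 was at 408 with the others between 279 and 298. Col3a1, a fibroblast marker, was at 13727 in ShHuR replicate 1 with the others between 2482 and 3725. The part of the replicate 1 libraries in the results was not tested beyond the fits without them.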

How the results depend on the processing

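Without the block and with all libraries, limma called 0 members higher and 0 lower, under both other pseudocounts, without a filter and after quantile scaling, and so did edgeR. DESeq2 without the block called 1 higher and 1 lower, and 248 genes in all. With the replicate block, limma called 6 members higher and 2 lower (1802 genes), and with a pseudocount of 0.5, a pseudocount of 5 or quantile scaling 6 and 2 again (1787, 1831 and 1648 genes). Without the filter it called 6 and 1 (1770 genes) and without a trend 1 and 1 (573 genes). With the block edgeR called 7 and 4 (1845 genes) and DESeq2 8 and 2 (2053 genes). With the block and without pairs 1 to 4 in turn, limma called 2831, 62, 523 and 0 genes, with 14, 0, 2 and 0 members higher and 5, 0, 0 and 0 lower. The same fits in edgeR, added after seeing the data, called 2803, 153, 717 and 164 genes, with 13, 1, 2 and 0 members higher and 5, 0, 1 and 0 lower. Without the block, leaving out single libraries gave between 0 and 105 genes, with 0 members. The member median log2 fold change lay between 0.064 and 0.138 when a library or pair was left out, and was 0.131 without ShHuR replicate 1. Signs turned for small, uncalled differences. Kdm6a was at −0.011 in edgeR and −0.00974 in edgeR with the block. With libraries or pairs left out Kdm6a ranged from −0.18 to 0.18, Suv39h1l1 from −0.095 to 0.88, Crebbp from −0.066 to 0.54, Ep300 from −0.15 to 0.20, Dnmt3a from −0.055 to 0.37, Tet2 from −0.11 to 0.28, Tet1 from −0.67 to 0.18 and Kdm4c from −0.19 to 0.011. Turned or edge values among these were −0.0226, −0.072 and −0.028 for Kdm6a (without pairs 1 and 4, and in edgeR without pair 1) and 0.155, 0.14 and −0.136 for Ep300 (without pair 3 in limma and in edgeR, and without ShCTR replicate 2). The causes were not tested. Kat2b and Setd1b had low counts in every library, and ShHuR libraries were the shallower ones. The part of depth in their values was not tested.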
